A study of Homo sapiens with 40 samples.

Results

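The genes described here are 8 that carry cholesterol synthesis or its control: HMGCS1, IDI1, FDFT1, SQLE, LSS and DHCR7, which encode enzymes of the pathway, SREBF2, which encodes the transcription factor SREBP-2 that drives them, and INSIG1, which encodes a brake on that factor. They were taken by exact symbol from the 55765 gene symbols counted in each of 40 RNA-Seq libraries, and all 8 were found and passed the filter on low counts in every experiment. All libraries came from HEK293, an established human embryonic kidney line, and form 12 groups in 3 experiments. In the RNA immunoprecipitation experiment (RIP), cells without siRNA gave total RNA and RNA recovered with antibodies against endogenous eIF4A1, eIF4A2 or DDX6 (IP), with 3 libraries per group. In the gradient experiment, cells given control siRNA or CNOT1 siRNA gave 3 kinds of RNA: unfractionated input, subpolysomal RNA (sucrose gradient fractions 1 to 5, pooled) and polysomal RNA (fractions 6 to 11, pooled), each from 4 libraries. In the TNRC6 knockdown experiment, cells given control siRNA or siRNAs against both TNRC6A and TNRC6B gave total RNA, with 2 libraries per group.

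Animal cells make cholesterol from acetyl-CoA by way of mevalonate, farnesyl diphosphate, squalene and lanosterol. SREBP-2 is made as a precursor in the endoplasmic reticulum membrane. When sterols are scarce, the escort protein SCAP carries it to the Golgi, where proteases release the part that enters the nucleus and switches on the genes of the pathway. When sterols are plentiful, INSIG proteins hold SCAP back. INSIG1 and SREBF2 are themselves targets of SREBP-2, so the 8 mRNAs share a transcriptional input. The proteins manipulated or captured here act on mRNA after transcription: eIF4A1 is the helicase of the cap-binding complex, eIF4A2 its close paralog, DDX6 a helicase of repression and decay, CNOT1 the scaffold of the Ccr4-Not deadenylase, and TNRC6A and TNRC6B link Argonaute to that deadenylase.

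The SREBF2 promoter is shown because a binding sequence for SREBPs lies in the gene that encodes the factor itself. The motif TCACNCCAC, the classical sterol regulatory element with 1 free position, was searched on both strands in windows of 300 bases, from 250 before to 50 after each RefSeq start (GRCh38.p14). It was found in SREBF2, on the gene's own strand, inside the run printed below (chr22:41832962-41832990), and not in the windows of HMGCS1, INSIG1, IDI1, DHCR7 or LSS. FDFT1 and SQLE had no promoter entry and were not searched. The printed run covers positions -143 to -115 from the start, with the motif in capitals.

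SREBF2: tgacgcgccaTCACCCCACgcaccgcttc

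Of 35116 promoters, 1.13% held this motif. The CCAAT box, the site of NF-Y, which binds beside SREBPs in many sterol-responsive promoters, was found in 7 of the 10 member promoters, against 34.6% of all promoters. Each of the 6 members with a promoter entry had the box in at least 1 window. In SREBF2 it starts at -106 on the opposite strand and does not overlap the sterol regulatory element at -133. These matches are letters in a window and not evidence of binding.

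The genes lie on 7 chromosomes (GRCh37, the build the files use): HMGCS1 at 5:43287572-43313614, IDI1 at 10:1085092-1095059, FDFT1 at 8:11653082-11696904, SQLE at 8:126010739-126034525, LSS at 21:47608055-47648738, DHCR7 at 11:71139239-71163914, SREBF2 at 22:42229109-42303310 and INSIG1 at 7:155089486-155101945. Exons of annotated antisense RNAs overlap those of HMGCS1 over 2497 nt, of SREBF2 over 731 nt (SREBF2-AS1), of IDI1 over 643 nt (IDI2-AS1), of LSS over 448 and 122 nt, and of FDFT1 over 217 nt. The kit marks strand but the setting used in counting is not given in the sources used here, so reads of an antisense partner cannot be told apart in these 5 genes. IDI1 also has 3 annotated pseudogenes, none among the counted symbols, and how reads matching both were handled is not given, so its level is uncertain.

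Libraries held 15.4 to 46 M counts, and levels are given as CPM, the count relative to the TMM-scaled library total. HEK293 markers were present in all 40 libraries (VIM at 105 to 676 CPM, NEFM at 197 to 6045, LIN28B at 126 to 267, KRT18 at 2.72 to 51.0, KRT8 at 2.66 to 11.7), and ALB, PTPRC and MYH6 stayed at or below 0.40 CPM. CNOT1, the targeted mRNA, was at 628 to 711 CPM in control input and 36.8 to 41.4 after CNOT1 siRNA, and at 235 to 317 against 73.5 to 89.6 in subpolysomal RNA. In polysomal RNA both libraries of replicate 3 went against their labels. The library labelled control siRNA held 28.3 CPM of CNOT1 where the other 3 held 470 to 501, and the library labelled CNOT1 siRNA held 631 where the others held 24.01 to 31.7. The labels were kept, and values without this pair are given beside the polysomal results. TNRC6A was at 178 and 189 CPM in the controls and 40.5 and 64.7 after TNRC6A/B siRNA, and TNRC6B at 67.6 and 73.0 against 17.7 and 26.3.

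**Figure D1:**
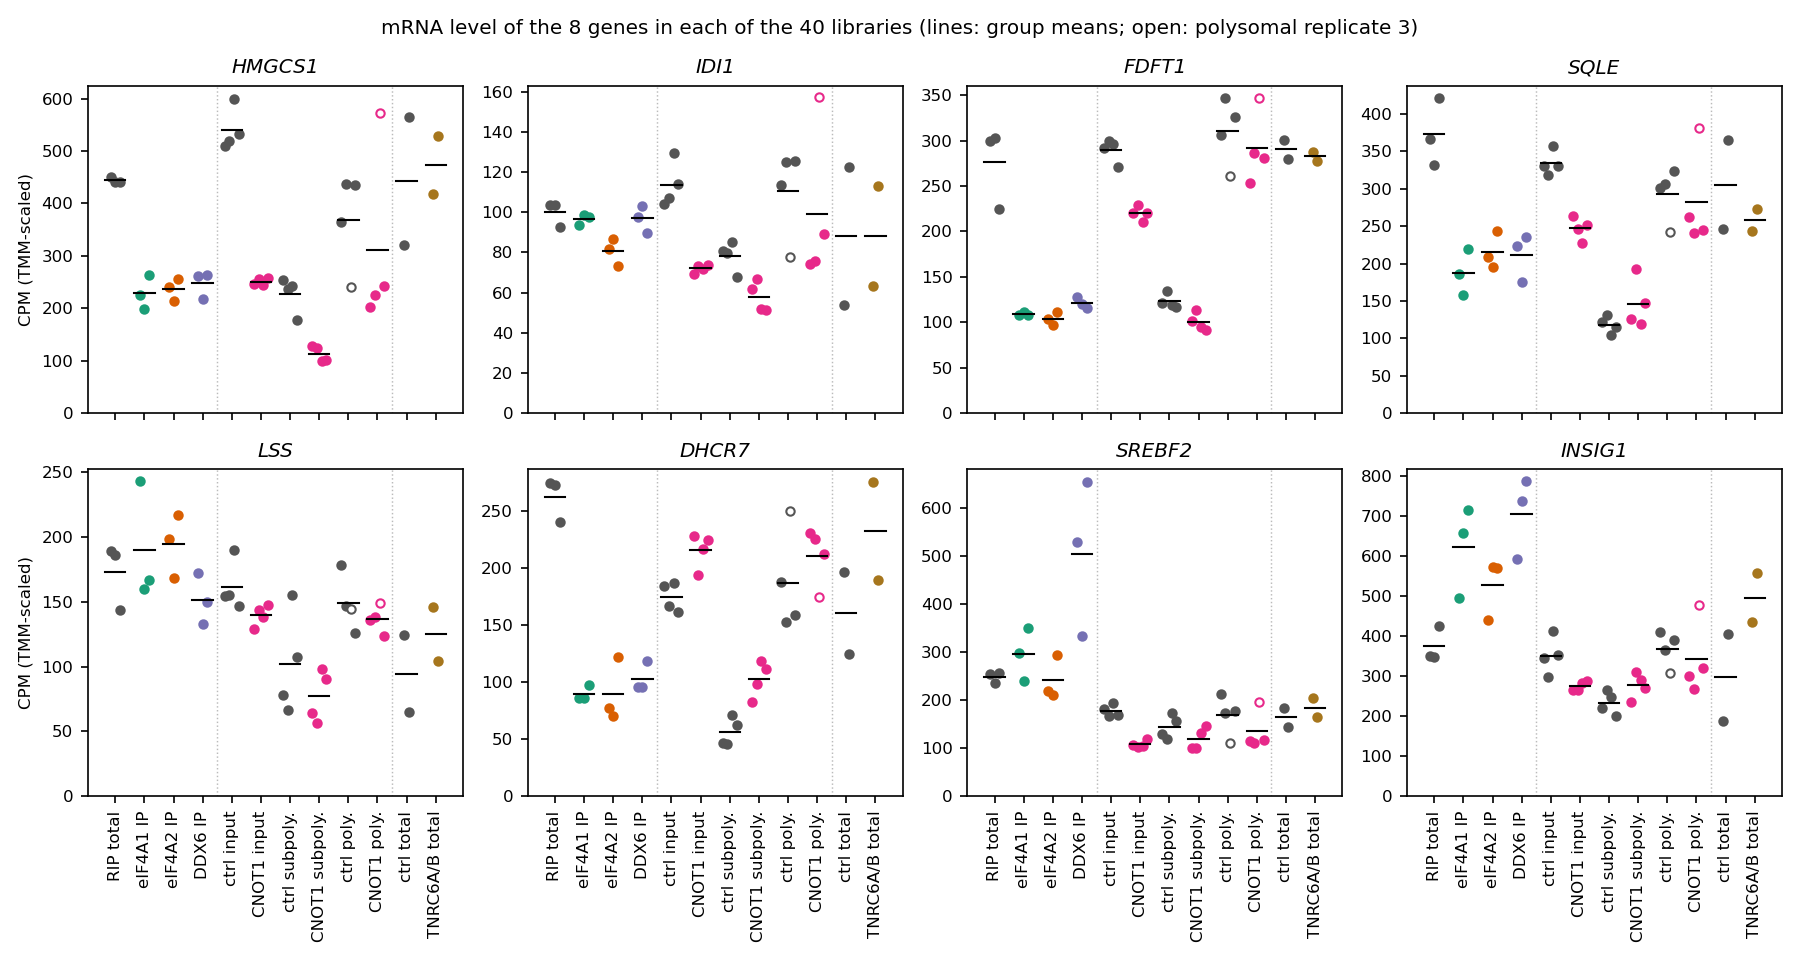
Level of each of the 8 mRNAs (TMM-scaled CPM, linear axis from 0) in each of the 40 libraries, as points, in the 12 groups; black lines are group means and open points are the polysomal libraries of replicate 3. HMGCS1 fell from a mean of 541 CPM in control input to 251 after CNOT1 siRNA, and its open points in polysomal RNA, at 241 with the control label and 573 with the CNOT1 label, lie nearer the libraries labelled with the other siRNA.

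Compared per length, the order of the 8 levels in control input RNA depended on the length used. Per kilobase of the union of annotated exons, INSIG1 (96.4 ± 12.9 CPM per kb, SD, n = 4), HMGCS1 (81.6 ± 6.08) and SQLE (77.6 ± 3.71) came first with overlapping ranges, followed by FDFT1 at 57.0 ± 2.46. IDI1 (26.5 ± 2.61), DHCR7 (25.4 ± 1.86), LSS (22.4 ± 2.68) and SREBF2 (22.1 ± 1.61) came last, each overlapping its neighbours in this order, while IDI1 and SREBF2 did not overlap. Per kilobase of 1 canonical transcript, a length chosen after seeing the data, FDFT1 came first at 142 ± 6.16, overlapping INSIG1 at 121 ± 16.2, and SQLE (113 ± 5.40) and HMGCS1 (101 ± 7.54) came next, both overlapping INSIG1. DHCR7 then stood alone at 66.6 ± 4.87, above IDI1 (41.6 ± 4.10), SREBF2 (34.0 ± 2.47) and LSS (33.1 ± 3.97). LSS and SREBF2 were at the low end with either length.

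To ask how the mRNAs depend on Ccr4-Not, input RNA after CNOT1 siRNA was compared with control. Of the 8 mRNAs, 7 fell and DHCR7 rose. HMGCS1 fell most, to 0.46 of control. Among all 16776 genes tested, 29.6% were called lower and 28% higher (edgeR quasi-likelihood test, FDR below 0.05 over all genes tested), so a call in either direction was common. The median log2 fold change was -0.42 over the 8 mRNAs and -0.03 over all genes.

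HMGCS1, which condenses acetyl-CoA with acetoacetyl-CoA at the entry of the pathway, was at 510, 520, 599 and 533 CPM in control input and at 246, 256, 244 and 258 after CNOT1 siRNA. No library of either group reached the other, and the log2 fold change was -1.11 ± 0.06 (SE, n = 4 per group, edgeR FDR = 2.31e-09). IDI1, which isomerises the isoprene unit, was at 104, 107, 129 and 114 CPM and then at 69.1, 73.3, 72.0 and 73.7. All control libraries lay above all CNOT1 siRNA libraries, with a log2 fold change of -0.66 ± 0.07 (FDR = 4.92e-07).

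FDFT1, squalene synthase, was at 292, 299, 296 and 271 CPM in control input and at 220, 230, 210 and 220 after CNOT1 siRNA. SQLE, squalene epoxidase and a rate-limiting step of the later pathway, was at 331, 319, 357 and 330 CPM and then at 264, 246, 227 and 251. Neither pair of groups overlapped. The log2 fold changes were close to each other, at -0.40 ± 0.05 for FDFT1 (FDR = 1.14e-05) and -0.44 ± 0.06 for SQLE (FDR = 1.11e-05).

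LSS, which closes squalene epoxide into lanosterol, showed the smallest fall. It was at 155, 155, 190 and 147 CPM in control input and at 129, 144, 138 and 148 after CNOT1 siRNA, and the groups overlapped (log2 fold change -0.21 ± 0.07, edgeR FDR = 0.0228). This LSS call was lost without control input replicate 3 (FDR = 0.103) or without CNOT1 siRNA input replicate 1 (FDR = 0.0731). DHCR7, the last reductase on the way to cholesterol, went the other way. It was at 184, 167, 187 and 161 CPM in control input and at 228, 194, 217 and 225 after CNOT1 siRNA, with every treated library above every control (log2 fold change 0.31 ± 0.07, FDR = 0.000831).

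SREBF2 was at 182, 167, 195 and 169 CPM in control input and at 107, 103, 105 and 120 after CNOT1 siRNA. The groups lay apart and SREBF2 showed the second steepest fall of the 8, with a log2 fold change of -0.71 ± 0.06 (edgeR FDR = 2.01e-07). INSIG1 was at 345, 298, 412 and 353 CPM and then at 265, 266, 283 and 288, also without overlap, and fell by 0.35 ± 0.08 on the log2 scale (FDR = 0.00105). These are shares of poly(A)-selected RNA in a whole culture, so fewer cells with an mRNA and less of it per cell cannot be told apart. A fit of all 24 gradient libraries together, whose spread includes the polysomal libraries of replicate 3, kept 5 of the 8 calls and lost those of DHCR7, INSIG1 and LSS. For that fit the share of all genes called was not counted.

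In subpolysomal RNA, 3 of the 8 mRNAs passed the test after CNOT1 siRNA: HMGCS1 and IDI1 fell and DHCR7 rose. Over all genes, 15.2% were called lower and 10.4% higher. HMGCS1 was at 253, 237, 243 and 178 CPM with control siRNA and at 128, 124, 99.2 and 102 with CNOT1 siRNA (log2 fold change -1.004 ± 0.14, edgeR FDR = 0.00128). DHCR7 was at 46.5, 45.6, 71.3 and 62.6 CPM and then at 82.6, 98.7, 119 and 111 (0.87 ± 0.17, FDR = 0.00487). Both pairs of groups lay apart. IDI1 was at 80.7, 79.8, 85.1 and 67.7 CPM and then at 61.7, 66.7, 51.8 and 51.3, a narrow separation (-0.44 ± 0.13, FDR = 0.0285), and this call was lost without control replicate 1, 2 or 3 or without CNOT1 siRNA replicate 3 or 4 (FDR = 0.0511 to 0.0782).

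Same-numbered subpolysomal libraries deviated together, and with the replicate number as a block all 8 mRNAs were called, 5 lower and 3 higher. With that block 32.6% of all genes were called lower and 24.3% higher. SQLE and INSIG1, which fell in input RNA, were higher in subpolysomal RNA with the block, by 0.29 ± 0.08 (edgeR FDR = 0.00368) and 0.25 ± 0.07 (FDR = 0.00621) on the log2 scale. FDFT1 (-0.30 ± 0.07), LSS (-0.36 ± 0.08) and SREBF2 (-0.28 ± 0.07) were the others that passed with it. SQLE was at 123, 131, 105 and 115 CPM with control siRNA and at 126, 193, 119 and 148 with CNOT1 siRNA, and INSIG1 at 220, 266, 248 and 202 against 236, 311, 292 and 271. Each CNOT1 siRNA library was above the control library of its own number for both genes, although the groups overlapped.

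In polysomal RNA with all libraries, none of the 8 mRNAs was called, none had an unadjusted p under 0.05, and DESeq2 called none. Of all genes, 0% passed in each direction, and at an unadjusted p under 0.05 there were 60 genes higher and 121 lower. Without the pair of replicate 3, 6 of the 8 fell and DHCR7 rose, while 15.9% of all genes were called lower and 19.2% higher. HMGCS1 was at 365, 437 and 435 CPM in the remaining control libraries and 203, 225 and 242 in the remaining CNOT1 siRNA libraries (log2 fold change -0.88 ± 0.10, edgeR FDR = 0.000198), against -0.25 ± 0.32 with all libraries. SREBF2 was at 212, 174 and 177 CPM against 115, 112 and 117 (-0.72 ± 0.09, FDR = 0.000365), and IDI1 at 114, 125 and 126 against 74.3, 75.8 and 89.0 (-0.61 ± 0.09, FDR = 0.000849). These 3 pairs of groups lay apart once the pair was left out. INSIG1 (-0.39 ± 0.09), SQLE (-0.31 ± 0.08) and FDFT1 (-0.26 ± 0.09) also fell. DHCR7 was at 188, 152 and 159 CPM against 231, 225 and 212 (0.42 ± 0.09, FDR = 0.00605). LSS did not pass (-0.18 ± 0.12, FDR = 0.268).

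**Figure D2:**
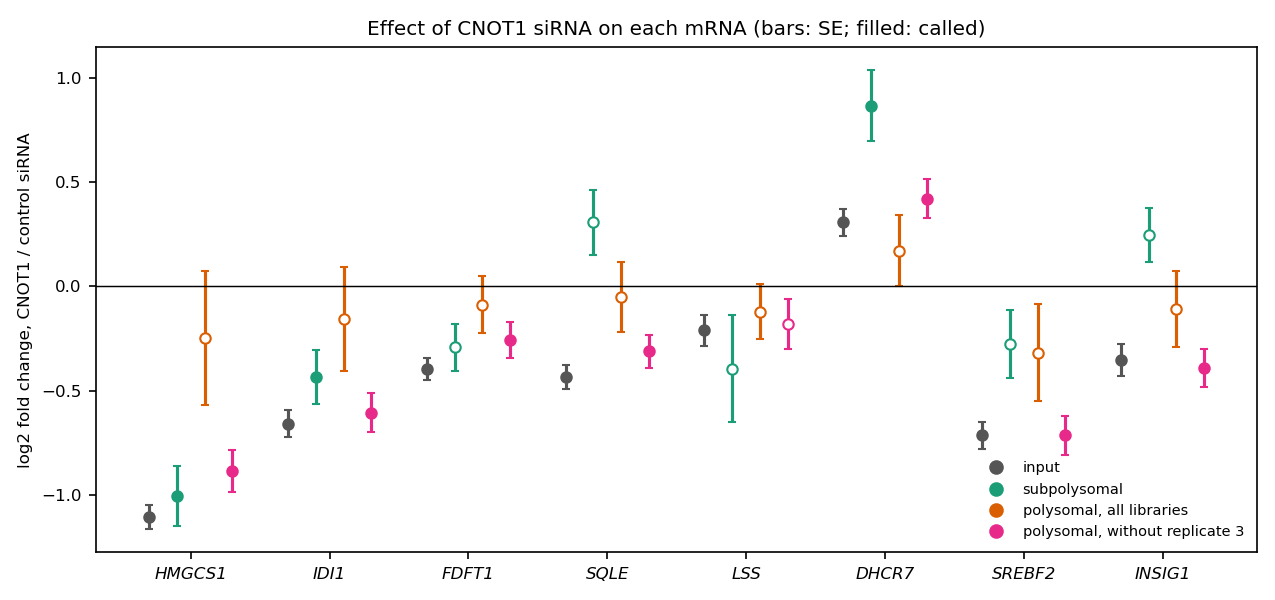
Log2 fold change of each mRNA after CNOT1 siRNA (points; bars are 1 SE) in input, subpolysomal and polysomal RNA, the last with all libraries and without both libraries of replicate 3; filled points were called at an edgeR FDR below 0.05. In polysomal RNA no point is filled with all libraries, and without replicate 3 HMGCS1 stood at -0.88 and SREBF2 at -0.72, next to -1.11 and -0.71 in input RNA.

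To ask how the mRNAs are distributed on ribosomes, polysomal RNA was compared with subpolysomal RNA within each siRNA. With control siRNA, 6 of the 8 were higher in polysomal RNA, where 30.5% of all genes were called higher and 33.5% lower. With CNOT1 siRNA, 6 of the 8 were also higher, against 32.7% higher and 33.2% lower among all genes. Without the pair of replicate 3, the counts were 7 of 8 (30.4% of all genes higher, 35.4% lower) and 6 of 8 (35.2% and 34.8%). None of the 8 was lower in polysomal RNA in any of these fits. The median log2 fold change over the 8 was 0.68 with control siRNA and 0.89 with CNOT1 siRNA, against -0.02 and -0.01 over all genes. Without the pair these medians were 0.80 and 0.78, so their order turned.

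DHCR7 had the highest polysomal level relative to subpolysomal RNA with control siRNA. Its log2 ratio in the 4 gradients was 2.00, 1.73, 1.80 and 1.34 (fitted log2 fold change 1.73 ± 0.21, edgeR FDR = 1.42e-05). After CNOT1 siRNA it was 1.48, 1.18, 0.56 and 0.93, and all but the first lay below every control gradient (1.04 ± 0.14, FDR = 2.17e-05). Without the pair of replicate 3 the DHCR7 values were 1.56 ± 0.17 and 1.11 ± 0.13. FDFT1 varied little between gradients. Its ratio was 1.33, 1.37, 1.13 and 1.48 with control siRNA and 1.31, 1.33, 1.87 and 1.62 with CNOT1 siRNA, and the fitted changes were 1.33 ± 0.14 (FDR = 6.6e-06) and 1.54 ± 0.13 (FDR = 3.96e-07), or 1.41 ± 0.11 and 1.45 ± 0.11 without the pair.

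SQLE was also polysomal, with log2 ratios of 1.29, 1.22, 1.20 and 1.49 in control gradients (fitted 1.31 ± 0.15, edgeR FDR = 9.79e-06). With CNOT1 siRNA its ratios spread over 1.06, 0.32, 1.68 and 0.73 (fitted 0.95 ± 0.18, FDR = 0.00041). The value of 1.68 belongs to replicate 3, and without the pair the fitted SQLE values were 1.39 ± 0.12 and 0.77 ± 0.15. HMGCS1 varied more, at 0.53, 0.88, -0.01 and 1.29 with control siRNA and 0.66, 0.86, 2.53 and 1.24 with CNOT1 siRNA. The lowest control value and the highest CNOT1 siRNA value of HMGCS1 both came from replicate 3, and without it the fitted changes were 0.86 ± 0.14 and 0.98 ± 0.12, in place of 0.70 ± 0.20 and 1.45 ± 0.27, all called.

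IDI1 had log2 ratios of 0.49, 0.64, -0.13 and 0.89 with control siRNA (fitted 0.50 ± 0.17, edgeR FDR = 0.0221) and 0.27, 0.18, 1.60 and 0.79 after CNOT1 siRNA (0.77 ± 0.21, FDR = 0.00579). The 1.60 belongs to the library labelled replicate 3, and without the pair IDI1 was at 0.63 ± 0.12 with control siRNA and 0.46 ± 0.13 with CNOT1 siRNA, so the order of the siRNAs turned. Its call with control siRNA was lost without subpolysomal replicate 4 or polysomal replicate 2 or 4 (FDR = 0.0685 to 0.0697). LSS had ratios of 1.19, 1.14, -0.10 and 0.23 in control gradients, which fell into a high and a low pair, and it missed the threshold there (0.55 ± 0.24, FDR = 0.0569). It passed with DESeq2 (FDR = 0.0341) and without control subpolysomal replicate 3, where LSS was at 155 CPM against 66.3 to 108 in the others (0.83, FDR = 0.00365). After CNOT1 siRNA LSS had ratios of 1.08, 1.28, 0.60 and 0.45 and was higher in polysomal RNA (0.82 ± 0.17, FDR = 0.000638), and without the pair the LSS values were 0.56 ± 0.25 and 0.78 ± 0.17.

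The regulators INSIG1 and SREBF2 had the lowest fitted values of the 8 after CNOT1 siRNA, and SREBF2 also with control siRNA. INSIG1 had log2 ratios of 0.90, 0.46, 0.31 and 0.96 with control siRNA and was called (0.66 ± 0.15, edgeR FDR = 0.00219), and ratios of 0.34, -0.22, 0.71 and 0.25 with CNOT1 siRNA, where it was not (0.30 ± 0.17, FDR = 0.129). Without the pair INSIG1 was at 0.74 ± 0.13 with control siRNA and 0.10 ± 0.12 with CNOT1 siRNA. SREBF2 had ratios of 0.71, 0.55, -0.66 and 0.17 with control siRNA and of 0.20, 0.15, 0.57 and -0.31 with CNOT1 siRNA, and was called in neither siRNA with all libraries (0.22 ± 0.20 and 0.18 ± 0.19). Without control polysomal replicate 3, SREBF2 was called higher in polysomal RNA with control siRNA (0.38 ± 0.15, FDR = 0.0441), and without the CNOT1 siRNA library of that number its value there was -0.06 ± 0.14 (FDR = 0.712).

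**Figure D3:**
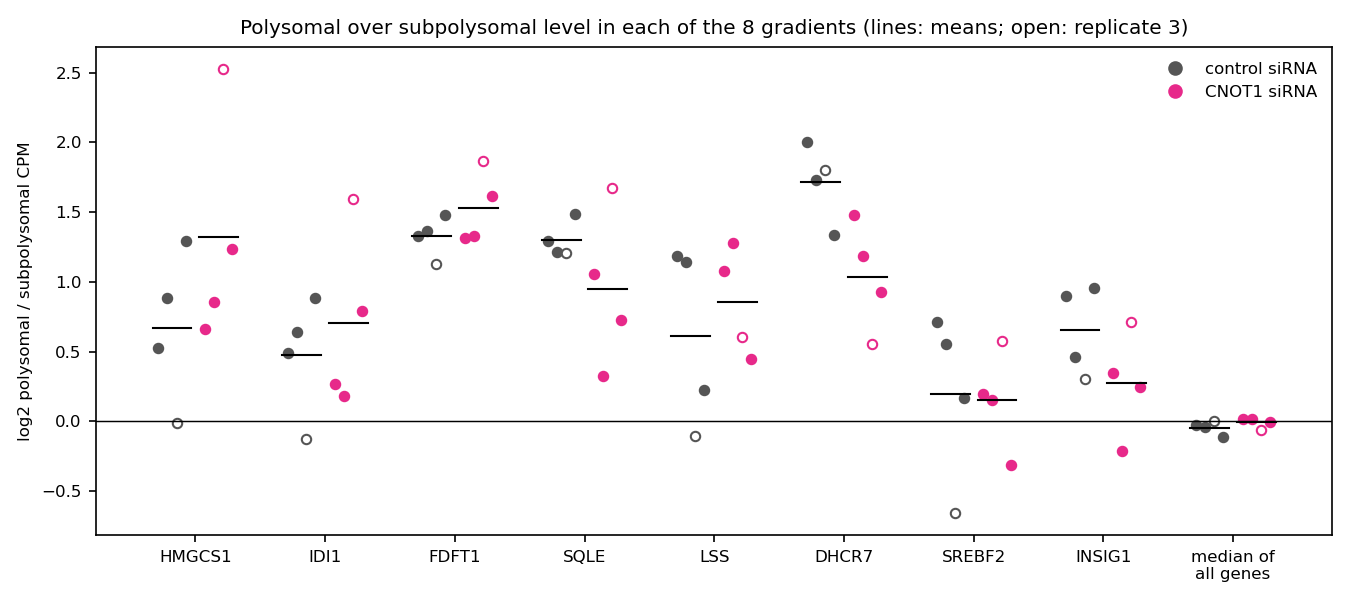
Log2 ratio of polysomal to subpolysomal CPM (pseudocount 0.5 CPM) of each mRNA, and the median over all genes, in each of the 4 control siRNA and 4 CNOT1 siRNA gradients (points); lines are means and open points are replicate 3. FDFT1, SQLE and DHCR7 lay above 0 in every gradient, the median of all genes lay between -0.11 and 0.02, and the SREBF2 points lay on both sides of 0.

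Whether CNOT1 siRNA changed the distribution was tested as an interaction term, in which a negative value means a lower polysomal than subpolysomal effect of the siRNA. None of the 8 was called by edgeR with all libraries, DESeq2 called none, and 1 of 8, DHCR7, had an unadjusted p under 0.05 (-0.70 ± 0.25, FDR = 0.199). Among all genes 0.548% were called with a positive and 0.37% with a negative difference. Without the pair of replicate 3, these shares were 5.47% and 4.01%, and INSIG1 alone among the 8 was called, with a difference of -0.64 ± 0.17 (FDR = 0.027). That value joins its fall in polysomal RNA (-0.39) with its higher fitted level in subpolysomal RNA (0.25), both on the log2 scale. SQLE had a difference of similar size (-0.62 ± 0.20, FDR = 0.0592) that missed the threshold, and was called along with INSIG1 when the replicate block was added, a choice made after seeing the data (-0.60 ± 0.16, FDR = 0.0217). For that blocked fit the share of all genes called was not counted, so its 2 calls have no background beside them. HMGCS1, which fell in both fractions once the pair was left out, had a difference of 0.12 ± 0.19 then and of 0.76 ± 0.38 with all libraries, neither called.

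Recovery of the mRNAs with the helicases was examined by setting every IP against RIP total RNA. The 3 comparisons share the same 3 total RNA libraries. A mock IP was not analysed here, so a lower or higher share in an IP is a share of the recovered RNA and not a measure of binding. In the eIF4A1 IP 4 of the 8 were lower and 1 higher, with 26.5% of all 17474 genes called lower and 26.1% higher. In the eIF4A2 IP 5 were lower and 1 higher (25.8% and 24.5% of all genes), and in the DDX6 IP 4 were lower and 2 higher (23.3% and 22.7%). HMGCS1, FDFT1, SQLE and DHCR7 were lower in all 3 IPs and INSIG1 was higher in all 3.

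DHCR7 and FDFT1 were depleted most. DHCR7 was at 275, 273 and 241 CPM in total RNA, at 85.8, 85.8 and 97.9 in the eIF4A1 IP, at 76.9, 70.2 and 122 in the eIF4A2 IP, and at 95.4, 95.7 and 118 in the DDX6 IP. Every IP library lay below every total RNA library, and the log2 fold changes were -1.55 ± 0.19, -1.55 ± 0.19 and -1.35 ± 0.19 (SE, n = 3 per group, edgeR FDR = 2.76e-05, 2.56e-05 and 0.000123). FDFT1 was at 300, 303 and 225 CPM in total RNA, at 108, 111 and 108 with eIF4A1, at 104, 97.4 and 111 with eIF4A2, and at 128, 120 and 115 with DDX6. The IPs again lay below total RNA with no overlap (-1.34 ± 0.14, -1.41 ± 0.14 and -1.19 ± 0.14).

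HMGCS1 was at 451, 441 and 441 CPM in total RNA and between 199 and 264 CPM in the 9 IP libraries. SQLE was at 366, 332 and 422 CPM in total RNA and between 158 and 243 CPM in the 9 IP libraries. Both mRNAs were recovered at about the same share in each IP. The log2 fold changes of HMGCS1 were -0.95 ± 0.14, -0.90 ± 0.14 and -0.84 ± 0.14, and those of SQLE -0.99 ± 0.17, -0.79 ± 0.17 and -0.82 ± 0.17, for eIF4A1, eIF4A2 and DDX6 in that order.

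IDI1 and LSS stayed near their level in total RNA. IDI1 was at 103, 104 and 92.6 CPM in total RNA and at 81.8, 86.5 and 73.1 in the eIF4A2 IP, where it was called lower (-0.31 ± 0.12, edgeR FDR = 0.0425). That IDI1 call was lost without total RNA replicate 1 or 2, without eIF4A2 IP replicate 1 or 3 (FDR = 0.0772 to 0.136) and without the filter on low counts (FDR = 0.255). The IDI1 values for eIF4A1 (-0.05 ± 0.12) and DDX6 (-0.04 ± 0.12) did not pass. LSS was at 189, 186 and 144 CPM in total RNA, and its changes of 0.14, 0.17 and -0.19, each with an SE of 0.19, passed in none of the IPs.

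INSIG1 was at 352, 348 and 427 CPM in total RNA, at 495, 659 and 716 in the eIF4A1 IP, at 440, 574 and 571 in the eIF4A2 IP, and at 594, 739 and 789 in the DDX6 IP. All 9 IP libraries exceeded all 3 total RNA libraries, by 0.73 ± 0.18 (edgeR FDR = 0.00443), 0.49 ± 0.18 (FDR = 0.0366) and 0.91 ± 0.18 (FDR = 0.00132) on the log2 scale. The INSIG1 call for eIF4A2 was lost without total RNA replicate 1 or 2 or eIF4A2 IP replicate 2 or 3 (FDR = 0.0955 to 0.113).

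SREBF2 was called in the DDX6 IP and in neither other IP, although its direct comparison between the DDX6 and eIF4A1 IPs missed the threshold (FDR = 0.188). It was at 254, 235 and 256 CPM in total RNA and at 529, 333 and 654 in the DDX6 IP, a change of 1.02 ± 0.23 (edgeR FDR = 0.00261). In the eIF4A1 IP it was at 298, 240 and 351 CPM (0.25 ± 0.23, FDR = 0.36) and in the eIF4A2 IP at 220, 212 and 295 (-0.04 ± 0.23, FDR = 0.904), and both overlapped total RNA.

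**Figure D4:**
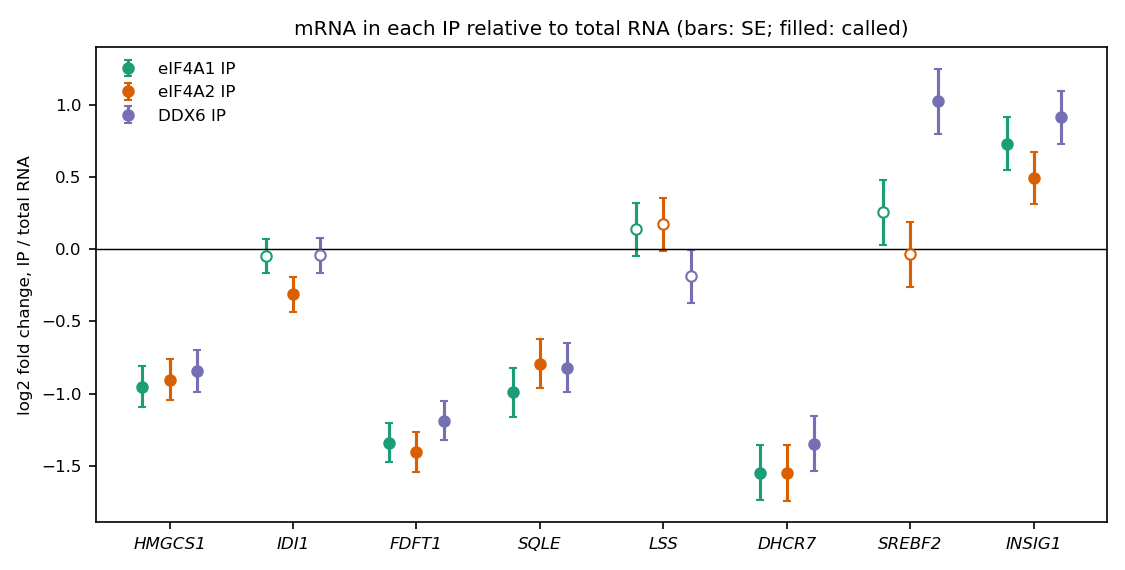
Log2 fold change of each mRNA in the eIF4A1, eIF4A2 and DDX6 IPs relative to the same RIP total RNA libraries (points; bars are 1 SE); filled points were called at an edgeR FDR below 0.05. HMGCS1, FDFT1, SQLE and DHCR7 lie below 0 and INSIG1 above 0 in all 3 IPs, and SREBF2 is filled for DDX6 alone, at 1.02.

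The IPs were also compared with each other. SREBF2 was lower in the eIF4A2 IP than in the DDX6 IP (-1.06 ± 0.23, edgeR FDR = 0.00752), the only 1 of the 8 called there, where 11.3% of all genes were called lower and 9.82% higher. Same-numbered RIP libraries deviated together, with total RNA replicate 3 numbered from its title since its description gives replicate 2, and with the replicate number as a block INSIG1 (-0.42 ± 0.11, FDR = 0.0109) and IDI1 (-0.27 ± 0.09, FDR = 0.0296) were lower too (22% of all genes lower, 18.5% higher). Without eIF4A2 IP replicate 3, which held 122 CPM of DHCR7 where the others held 76.9 and 70.2, DHCR7 was called lower (-0.49, FDR = 0.0492). Between DDX6 and eIF4A1, none of the 8 was called by edgeR, with 0.0801% of all genes higher and 0.0114% lower. SREBF2, at 0.77 ± 0.23 (FDR = 0.188), was the 1 member with an unadjusted p under 0.05 there, although the groups overlapped, and was called by DESeq2 (FDR = 0.031), without the filter on low counts (FDR = 0.0196) and with the block (0.74 ± 0.14, FDR = 0.0116), where 6.08% of all genes were called higher and 3.82% lower. Between eIF4A2 and eIF4A1 none was called by edgeR or DESeq2, with 0.973% of all genes higher and 0.0858% lower. IDI1 (-0.26 ± 0.12, FDR = 0.271) was the 1 member with an unadjusted p under 0.05.

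To ask whether the GW182 proteins affect the mRNAs, total RNA after TNRC6A/B siRNA was compared with control. None of the 8 was called by edgeR without a replicate block or by DESeq2. None had an unadjusted p under 0.05, and 0% of the 14064 genes tested passed in each direction. At an unadjusted p under 0.05 there were 173 genes higher and 116 lower. TNRC6A and TNRC6B themselves did not pass at this size (log2 fold change -1.80 ± 0.29 and -1.68 ± 0.28, edgeR FDR = 1). INSIG1 was at 188 and 406 CPM in the controls and 435 and 558 after TNRC6A/B siRNA (0.74 ± 0.41), and DHCR7 at 196 and 125 against 275 and 189 (0.53 ± 0.32). The INSIG1 groups lay apart, with controls that differed widely, and the DHCR7 groups overlapped. With the replicate number as a block, INSIG1 (0.83 ± 0.16, edgeR FDR = 1.19e-05) and DHCR7 (0.54 ± 0.16, FDR = 0.0145) were called. The share of all genes called with that block was not counted, so these 2 calls have no background beside them. With 2 libraries per group, the replicate numbers do not show pairing. HMGCS1 was at 320 and 566 CPM against 418 and 528 (0.10 ± 0.33), and SREBF2 at 185 and 144 against 205 and 164 (0.17 ± 0.23). In CPM, the 2 control libraries differed from each other by more than the group means did for every member except DHCR7. For DHCR7 these differences were nearly equal.

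The other genes of sterol metabolism were counted from 4 lists, all of whose genes were tested. Among 15 other enzymes from acetoacetyl-CoA to cholesterol, 9, 10 and 9 were lower in the eIF4A1, eIF4A2 and DDX6 IPs and 0, 0 and 1 higher, and the median log2 fold changes were -0.72, -0.94 and -0.68. Among those with a mean of at least 10 CPM, NSDHL, a sterol dehydrogenase of the late pathway, had the largest fall in each IP (-1.85 ± 0.15, -1.89 ± 0.16 and -1.37 ± 0.15), and GGPS1, which draws farnesyl diphosphate off to geranylgeranyl diphosphate, rose in the DDX6 IP (0.45 ± 0.12). Of 9 genes of fatty acid synthesis, 5, 7 and 5 were lower and 0 higher in each IP. Of 5 genes of SREBP processing and escort, 3, 1 and 1 were higher and 2, 2 and 0 lower, and of 7 genes of sterol transport, efflux and esterification, 4 were higher in each IP and 2, 3 and 2 lower. Over all genes, 26.5%, 25.8% and 23.3% were called lower and 26.1%, 24.5% and 22.7% higher in these IPs.

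In input RNA after CNOT1 siRNA, 6 of the 15 other enzymes fell and 3 rose, where 29.6% of all genes were called lower and 28% higher, and their median log2 fold change was -0.04, FDPS, farnesyl diphosphate synthase, falling by 0.40 ± 0.06 on the log2 scale and MVK, mevalonate kinase, rising by 0.35 ± 0.09. Among the 5 processing genes 3 rose and 1 fell, with MBTPS2, the site-2 protease that releases SREBPs, at 0.33 ± 0.07. Of the 7 transport genes 4 rose and 3 fell, NPC2, a carrier of lysosomal cholesterol, with -0.84 ± 0.09. Of the 9 fatty acid genes 1 rose and 3 fell, SCD, the stearoyl-CoA desaturase, by 0.62 ± 0.07.

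In subpolysomal RNA 3 of the 15 enzymes rose and 3 fell, where 10.4% of all genes were called higher and 15.2% lower. In polysomal RNA with all libraries none was called, where 0% of all genes passed in each direction. Without the pair of replicate 3, 1 rose and 2 fell, against 19.2% of all genes higher and 15.9% lower. In polysomal against subpolysomal RNA with control siRNA, with all libraries and also without the pair, 9 of the 15 enzymes were higher and 1, GGPS1 (-1.04 ± 0.18), lower. Of all genes, 30.5% were called higher and 33.5% lower there, or 30.4% and 35.4% without the pair. INSIG2, the paralog of INSIG1, was lower in polysomal RNA (-0.79 ± 0.18 with control siRNA, -0.999 ± 0.15 with CNOT1 siRNA, and -0.81 and -0.98 without the pair). Of the fatty acid genes 6 were higher and 0 lower with control siRNA in both fits, ACLY, ATP citrate lyase, at 1.68 ± 0.15. Of the transport genes 3 were higher and 3 lower, or 2 and 3 without the pair, with SOAT1, which esterifies cholesterol, at 1.66 ± 0.17. After TNRC6A/B siRNA none of the 36 listed genes was called without a block, and neither was any of the 14064 genes tested. Mean levels of INSIG2 were 25.06 CPM in RIP total RNA, 34.21 in the eIF4A1 IP, 24.95 in the eIF4A2 IP and 43.24 in the DDX6 IP. Its rise was called for DDX6 (log2 fold change 0.79 ± 0.16). All 5 processing genes were called for eIF4A1, so the rise of INSIG2 was called there too. INSIG1 rose in all 3 IPs.

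Features of the 8 mRNAs were read from 1 canonical transcript per gene (GENCODE release 44 on GRCh37). Only 73.9% of the tested genes have such values, so no comparison with all tested genes is made and the values are given for the 8 alone. The 5′UTR runs from 29 nt in LSS to 899 nt in SQLE, and the other 6 lie between 92 nt (FDFT1) and 235 nt (DHCR7). Purines make up 39.7% of the 5′UTR of HMGCS1 and 42.2% of that of INSIG1, against 62.1% in DHCR7 and 65.5% in LSS. In the 3′UTR, HMGCS1 and IDI1 each hold 12 ATTTA pentamers, and INSIG1 holds 6, FDFT1 5, SREBF2 4, SQLE 3, DHCR7 2 and LSS 0. The relation of these features to the measured changes was not tested.

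Across the 12 group means of log2 CPM, centred within each experiment, FDFT1 (r = 0.90), SQLE (0.88), HMGCS1 (0.85), IDI1 (0.83), LSS (0.75) and DHCR7 (0.70) followed the mean of the other 7 members, and INSIG1 (0.24) and SREBF2 (0.21) did so weakly. Of 8149 other genes with at least 10 CPM in every group, the profiles most like the mean of the 8 were those of RP11-145M9.4 (r = 0.99), CADM1 (0.99), ABHD2 (0.98), BRCC3 (0.98) and WWTR1 (0.98). These are descriptions over 12 points that share libraries, depth and the same IP and fraction contrasts.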

How the data were processed

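RNA-Seq counts of 40 libraries were used. The authors made the deposited counts from poly(A)-selected TruSeq Stranded libraries (bcl2fastq 2.0, TopHat2 to hg19, HTSeq; other versions and the strand option are not given in the sources used here), as whole reads per gene symbol. A further deposited table holds the authors' own edgeR results (log2 fold changes, log2 CPM, likelihood ratios, p-values and FDRs of each IP against total RNA) and was not used.

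Here genes were kept by filterByExpr and scaled by TMM over each experiment (12, 24 and 4 libraries), which left 17474, 16776 and 14064 genes. edgeR 4.0.16 quasi-likelihood F-tests (R 4.3.3, limma 3.58.1), two-sided, were fitted to all 12 RIP libraries, to the compared gradient groups or to the 4 TNRC6 libraries, with Benjamini-Hochberg adjustment over all genes tested and calls at FDR below 0.05. Scripts were tested on simulated data. The results were also computed without the low-count filter, with RLE factors, with DESeq2 1.42.0, with a replicate block, with other library sets and with each library left out. Named pathway genes are the called gene with the largest increase or decrease of each list at a mean of at least 10 CPM. The members and lists were chosen with earlier results of these data known. Nothing states that replicates were separate cultures, so p-values measure the spread between these libraries, which may be technical. Replicate libraries differed beyond counting noise (lowest chi-square per degree of freedom 5.49). Same-numbered libraries deviated together (every correlation above 0.1) in the 6 RIP comparisons and in input (0.195 to 0.358) and subpolysomal RNA (0.586 to 0.736). In the TNRC6 experiment the correlation was 0.862, the same for both numbers because 2 libraries per group deviate by equal and opposite amounts. Blocked values therefore stand beside results they change.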

Additional observations from a re-analysis of the deposited data

Results flagged for a closer look

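In the 4 polysomal CNOT1 siRNA libraries, the library labelled replicate 3 stood far above the other 3 in 3 of the 8 mRNAs: HMGCS1 was at 573.3 CPM against 203 to 241.9, SQLE at 381.2 against 241.5 to 262.8, and SREBF2 at 196.5 against 111.6 to 117. Of 48 groups of 4 values examined for a sample far from the others, these 3 were marked, and chance marks about 1 in 20. The same library held 631 CPM of CNOT1, the siRNA's target, where the other 3 held 24.01 to 31.7.

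The effect of CNOT1 siRNA on INSIG1 differed between fractions when both polysomal libraries of replicate 3 were left out, with an interaction of -0.64 on the log2 scale (edgeR FDR = 0.027). With all libraries the INSIG1 value was -0.36 (FDR = 0.492).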

How the results depend on the processing

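Of the counts of called members under an alternative, 156 stayed within 1.5 times the reported count and 12 did not. With a replicate block, 3 members were called between the eIF4A2 and DDX6 IPs (1 reported), 1 between the DDX6 and eIF4A1 IPs (0), 8 in subpolysomal RNA after CNOT1 siRNA (3) and 2 after TNRC6A/B siRNA (0). Those 2 were INSIG1 at 0.83 and DHCR7 at 0.54, where 2 numbers do not show pairing. The share of all genes called in that blocked TNRC6 fit was not counted, so these 2 calls have no background beside them. For DDX6 against eIF4A1, DESeq2 called 1 and the fit without a filter 1. With all 24 gradient libraries in 1 fit, 5 were called in input RNA (8), and the share of all genes called in that fit was not counted. Without both polysomal libraries of replicate 3, 7 were called in polysomal RNA (0) and 1 in the interaction (0), and with the block as well, a choice made after seeing the data, 7 and 2. For those fits with the block as well, the shares of all genes called were not counted. Leaving out 1 library at a time gave 1 to 2 calls between the eIF4A2 and DDX6 IPs. The block changed the polysomal to subpolysomal count with control siRNA from 6 to 5 and no other count beyond those named. With all libraries kept, polysomal libraries of equal number did not deviate together (for example -0.562 for replicate 3 between the siRNAs). That check includes the pair of replicate 3, which went against its labels, and was not made without it. Whether the other polysomal libraries are paired was therefore not tested. Of the values of single members, 1233 kept direction and side of the threshold, 26 lost the call, 40 gained it and 45 changed sign while called in neither. Without replicate 3 of polysomal RNA, counts of all genes called in polysomal RNA rose from 0 and 0 to 3229 higher and 2659 lower. With 2 to 4 libraries per group, small differences could be missed.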
